A study of Mus musculus with 8 samples.

Results

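The genes described here serve protein folding in the endoplasmic reticulum (ER) and the unfolded protein response (UPR), the signalling that adjusts ER capacity to its load. They were chosen by name. All 41 had a row in the deposited count table of 24746 genes, and all 41 passed the filter on low counts that left 11363 genes for testing. They fall into 5 role groups, namely 9 lumenal chaperones and cofactors, 8 lectin chaperones and disulfide-forming enzymes, 10 translocon and signal peptidase genes, 9 genes of ER-associated degradation, and 5 stress sensors and effectors.

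Secretory and membrane proteins, immunoglobulin among them, enter the ER through the SEC61 translocon, lose their signal peptide, are folded by chaperones and disulfide isomerases, and are sent back to the cytosol for degradation when folding fails. In the UPR, the sensors IRE1, PERK and ATF6 respond to misfolded protein. IRE1 splices the Xbp1 transcript, PERK promotes translation of ATF4, and ATF6 is cut into a transcription factor. B cells draw on this system most when they become antibody-secreting plasma cells. Gene counts measure the transcripts and not sensor activity or Xbp1 splicing.

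RNA of sorted bone marrow B cells from 8 mice aged 10 to 12 weeks was sequenced after SMART-seq amplification. The 4 control mice were miR-15a/b+/+ Vav-Cre and the 4 double knockout (dKO) mice were miR-15a/bfl/fl Vav-Cre, so that both groups carried Vav-Cre, a Cre transgene active from blood stem cells onward and so in every blood lineage. The floxed clusters encode miR-15a with miR-16-1 and miR-15b with miR-16-2, and the series title concerns their limiting of the IL-7 receptor as B cells form. The labels of the samples give the sorted cells as B1a, an innate-like B cell type, whereas the series text has pro-B. The deleted microRNAs are shown because they define the genotype. Capitals mark the seed, bases 2 to 8, which all 3 share; the sequences are from RefSeq (GRCm38.p6).
miR-15a-5p: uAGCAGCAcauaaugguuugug
miR-15b-5p: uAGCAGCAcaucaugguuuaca
miR-16-5p: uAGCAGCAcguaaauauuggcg

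The libraries held 25565090 to 34954230 counts, of which the 41 genes took 0.573% to 0.819%. Values below are CPM, the gene's counts scaled to 1e6 counts of the TMM-corrected library total. Dleu2, the noncoding transcript that carries miR-15a, was at 12.7 to 25.0 CPM in control and 72.2 to 111.4 CPM in dKO libraries, and the 4 microRNA precursor genes had no counts in any library, so neither checks the deletion itself. All 8 B cell markers were above 1 CPM, with summed levels of 23021 to 26057 CPM in control and 22002 to 24171 CPM in dKO libraries. Of 7 pro-B markers only Vpreb1 and Vpreb3 reached 1 CPM and Kit was at 0 in all libraries, while all 10 B-1a markers and all 10 follicular B-2 markers, genes of conventional B cells, reached 1 CPM. Follicular B-2 markers summed to 3774 CPM in control 2 and 3525 CPM in control 4, against 1660 to 2495 CPM in the other 6 libraries. In such bulk samples, fewer cells of a type and less RNA per cell cannot be told apart.

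Of the 34 members with a promoter window, 12 (35.3%) carried a UPR element, against 0.884% of all 27025 genes with a window, whether tested or not. The ER stress response element (ERSE), bound by ATF6 with the factor NF-Y, reads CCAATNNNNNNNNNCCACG. ERSE-II reads ATTGGNCCACG, and the XBP1-binding UPRE reads TGACGTGG. All 3 were searched on both strands of RefSeq promoter windows (GRCm38.p6) from 250 bases before to 50 bases after the annotated start. Of the 34, 2 were matched by synonym. An ERSE was found in 10 of the 34 members (29.4%), against 37 of 27025 genes (0.137%), which include these 10. ERSE-II was found in 2 members (5.88%), against 12 genes in all (0.0444%). No member window held the UPRE, which 193 genes (0.714%) had. A match is a string of letters and not a measured binding site. The members were chosen by name as ER folding and UPR genes, so their larger share describes that choice and is not a result of these data.

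The windows of Hspa5 and Herpud1 are printed because Hspa5 is the classical ERSE gene and Herpud1 had the smallest p of the 41 members. Each is given 5′ to 3′ on the gene's strand (+), with the fixed letters of the motif in capitals. The Hspa5 window spans chr2:34771840-34772139 and its ERSE lies 65 to 47 bases before the start. The Herpud1 window spans chr8:94386179-94386478 and its ERSE-II lies 52 to 42 bases before the start.
Hspa5 promoter window: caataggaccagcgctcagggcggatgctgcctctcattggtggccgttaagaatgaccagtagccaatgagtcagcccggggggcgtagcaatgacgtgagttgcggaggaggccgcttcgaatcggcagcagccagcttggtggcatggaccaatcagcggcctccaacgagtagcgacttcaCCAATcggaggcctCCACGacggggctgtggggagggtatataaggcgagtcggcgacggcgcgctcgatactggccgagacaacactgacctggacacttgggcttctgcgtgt
Herpud1 promoter window: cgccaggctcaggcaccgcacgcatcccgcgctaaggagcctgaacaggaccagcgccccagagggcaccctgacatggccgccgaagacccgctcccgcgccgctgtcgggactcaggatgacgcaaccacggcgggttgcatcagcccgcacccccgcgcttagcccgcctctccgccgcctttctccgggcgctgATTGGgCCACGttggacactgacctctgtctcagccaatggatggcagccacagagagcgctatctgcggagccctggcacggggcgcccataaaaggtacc

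The other matches show how the spacer varies between fixed ends. In Calr, Derl3, Ero1lb and Creld2 the element read on the opposite strand, so the CCAAT box appears as its reverse complement ATTGG. Hsp90b1 held 2 elements, one on each strand, 212 to 194 and 107 to 89 bases before its start. The Dnajb11 element lay within the transcript, from 7 to 17 bases after the start.
Hsp90b1 distal ERSE: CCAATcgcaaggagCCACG
Hsp90b1 proximal ERSE: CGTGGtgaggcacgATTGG
Dnajc3 ERSE: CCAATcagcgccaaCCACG
Creld2 ERSE: CGTGGcgagcctcaATTGG
Canx ERSE: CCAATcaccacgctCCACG
Calr ERSE: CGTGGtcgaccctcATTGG
Pdia6 ERSE: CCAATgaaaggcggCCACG
Ero1lb ERSE: CGTGGtcccgcctcATTGG
Syvn1 ERSE: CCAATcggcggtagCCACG
Derl3 ERSE: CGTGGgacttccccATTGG
Dnajb11 ERSE-II: ATTGGcCCACG

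Member levels spanned more than 3 orders of magnitude. Per kilobase of annotated exon, Selenok, which encodes a selenoprotein of the ER membrane, was highest in the controls at 287 ± 45.9 CPM per kb (SD, n = 4). It was followed by the signal peptidase subunit Spcs1 at 283 ± 73.4, the BiP-associated factor Sdf2l1 at 264 ± 82.4 and the disulfide isomerase Pdia3 at 257 ± 46.2 CPM per kb (SD, n = 4 each), and these 4 did not differ beyond their spread. The chaperones Hsp90b1 and Hspa5 stood at 150.2 ± 26.3 and 123 ± 36.7 CPM per kb (SD, n = 4 each). At the other end, the sensor gene Ern1, which encodes IRE1, was at 0.081 ± 0.084 and the chaperone gene Hyou1 at 0.35 ± 0.14 CPM per kb (SD, n = 4 each), and the sensor genes Atf6 and Eif2ak3, which encodes PERK, were at 2.72 ± 0.66 and 3.42 ± 0.40. Ddit3 was left out of this order, since the reference gives its identifier a model of 105 bases. Exon lengths came from GENCODE M21, another build than the authors'.

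**Figure D1:**
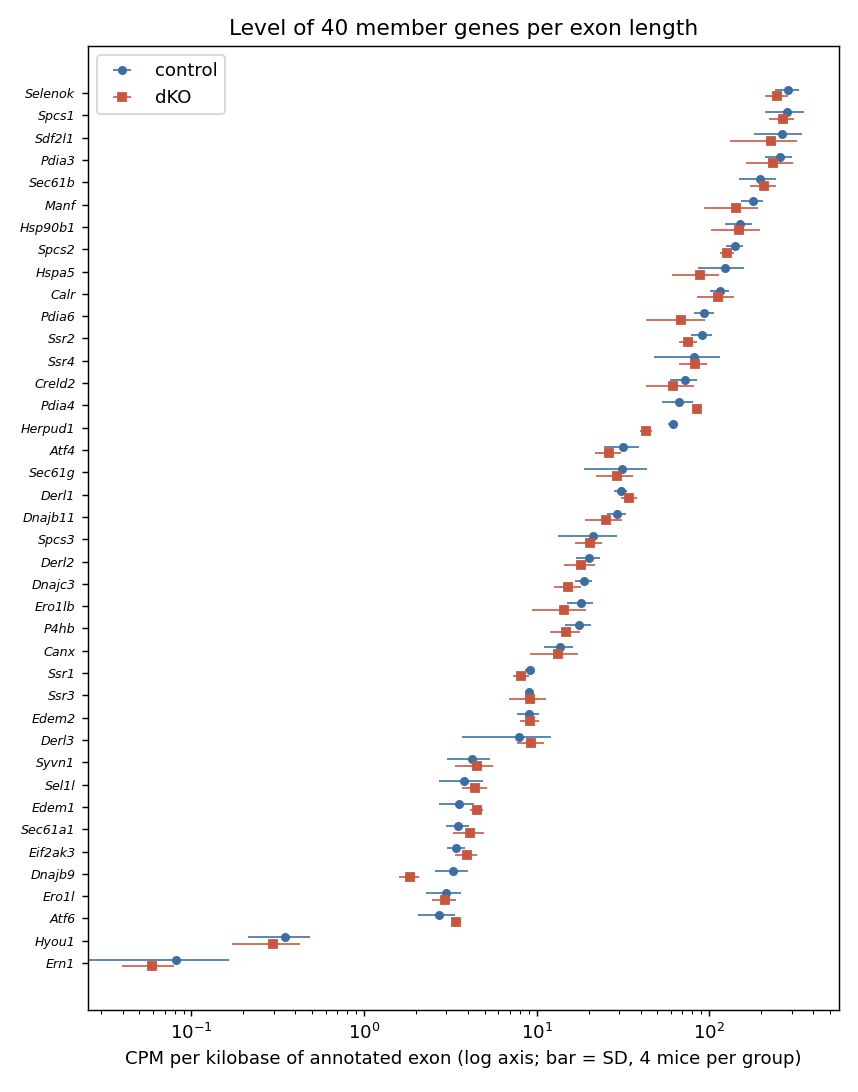
Level of 40 members per kilobase of annotated exon in control (circles) and dKO (squares) libraries, as mean with SD over 4 mice per group on a log axis, where the lower bar of Ern1 in the controls passes below 0 and is cut off. Selenok, Spcs1, Sdf2l1 and Pdia3 lead at over 250 CPM per kb in the controls, and Ern1 and Hyou1 lie lowest.

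No member passed the test between dKO and control libraries. Of the 41, 28 lay lower in the dKO libraries and 13 higher, with a median log2 fold change (dKO over control) of −0.13. Over all genes tested, 52.3% lay lower and the median was −0.02. With edgeR's quasi-likelihood test, 0 members and 0.088% of all genes were called at an adjusted p under 0.05 (Benjamini-Hochberg over 11363 genes), and at an unadjusted p under 0.05, 3 members and 10.8% of all genes. That count of 3 was 7 without control 1 (13.3% of all genes in that fit) and 7 without dKO 4 (11.7%), and 2 to 4 without any other single library. It was 5 with the replicate number as a block (10.6% of all genes) and 11 in limma voom (18.8%). The smallest adjusted p among members was 0.14. The lower median rested partly on single libraries. Without dKO 2 it was −0.03 with 21 members lower, without control 1 −0.07 with 27, without dKO 1 −0.07 with 24, and without dKO 4 −0.21 with 32.

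**Figure D2:**
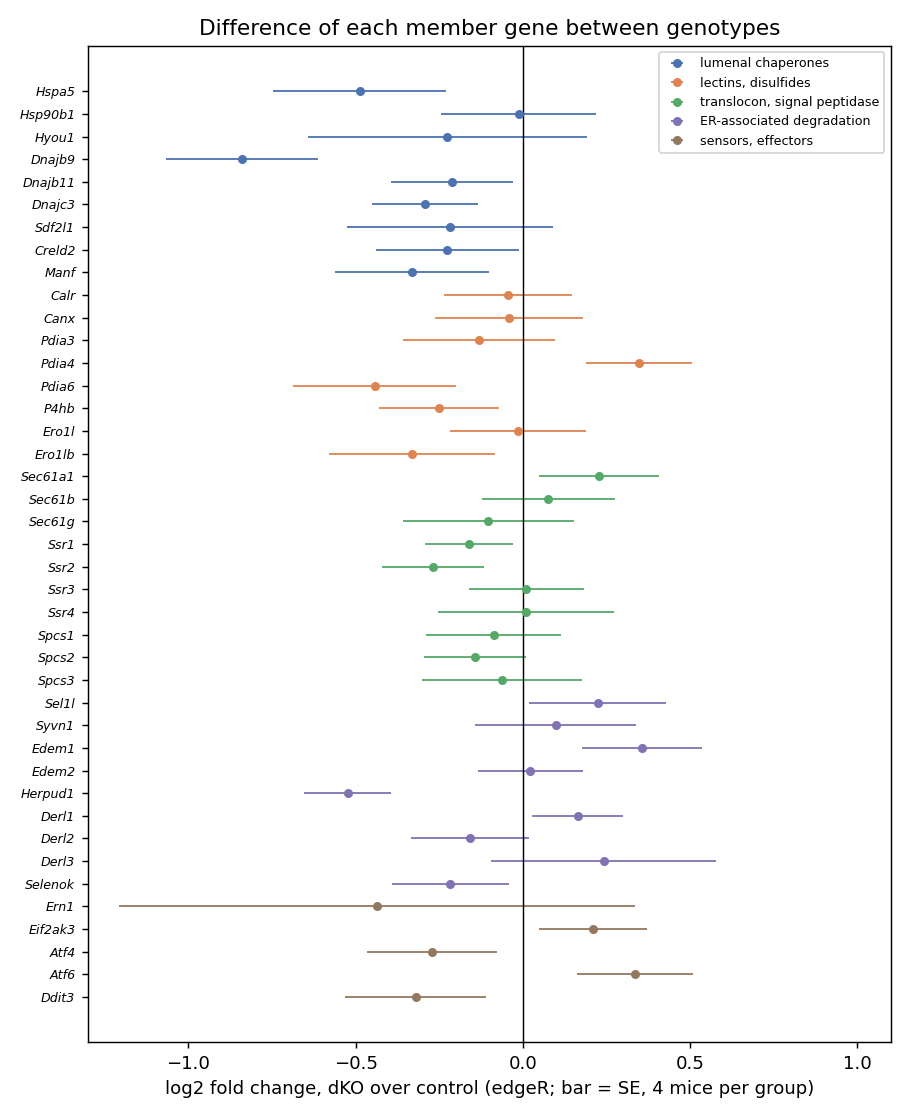
Log2 fold change of each member, dKO over control, from edgeR with SE as bars (4 mice per group), coloured by role group. All 9 lumenal chaperone genes lie left of 0, led by Dnajb9 at −0.84, while Pdia4, Edem1 and Atf6 are farthest right at 0.34 to 0.36.

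In 2 members the groups did not overlap, both with the dKO libraries lower, against 2.96% of all genes, and in none were all dKO libraries higher, against 4% of all genes. The first of the 2 was Herpud1 (ENSMUSG00000031770), an ER membrane protein that organises the degradation complex and a standard UPR target. It stood at 137.3, 156.7, 136.5 and 147.3 CPM in controls 1 to 4 and at 107.8, 99.0, 90.1 and 105.3 CPM in dKO 1 to 4. The highest dKO library thus lay below the lowest control. Its level was 1.44-fold lower in the dKO libraries. The log2 fold change was −0.52 ± 0.13 SE (edgeR, adjusted p = 0.14). Herpud1 also varied least of all 41 members within groups, with an SD of 0.105 on the log2 scale.

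Dnajb9 (ENSMUSG00000014905), which encodes the BiP cofactor ERdj4, a target of XBP1, showed the largest log2 difference of any member. It was at 6.45, 10.5, 9.18 and 7.39 CPM in controls 1 to 4 and at 4.70, 3.79, 5.22 and 5.01 CPM in dKO 1 to 4. These rest on 102 to 312 counts per library, with no overlap between groups. Its level was 1.79-fold lower in the dKO libraries. The log2 fold change was −0.84 ± 0.23 SE (edgeR, adjusted p = 0.16). DESeq2 called both genes lower (adjusted p = 0.0086 for Herpud1 and 0.026 for Dnajb9) while calling 2.84% of all genes, and limma voom with quality weights called Herpud1 (adjusted p = 0.049) but not Dnajb9 (0.053) while calling 2.26% of all genes. In edgeR fits with 1 library left out, the log2 fold change was −0.56 to −0.47 for Herpud1 and −0.94 to −0.71 for Dnajb9, with adjusted p of 0.089 to 0.39 and 0.093 to 0.46. Herpud1 was highest in control 2 and control 4, which had high follicular B-2 markers. Over all 18 alternative fits its value was −0.56 to −0.44. For Dnajb9 it was −0.77 with a covariate for those markers (edgeR adjusted p = 0.25) and −0.74 without both control 2 and control 4 (0.27).

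**Figure D3:**
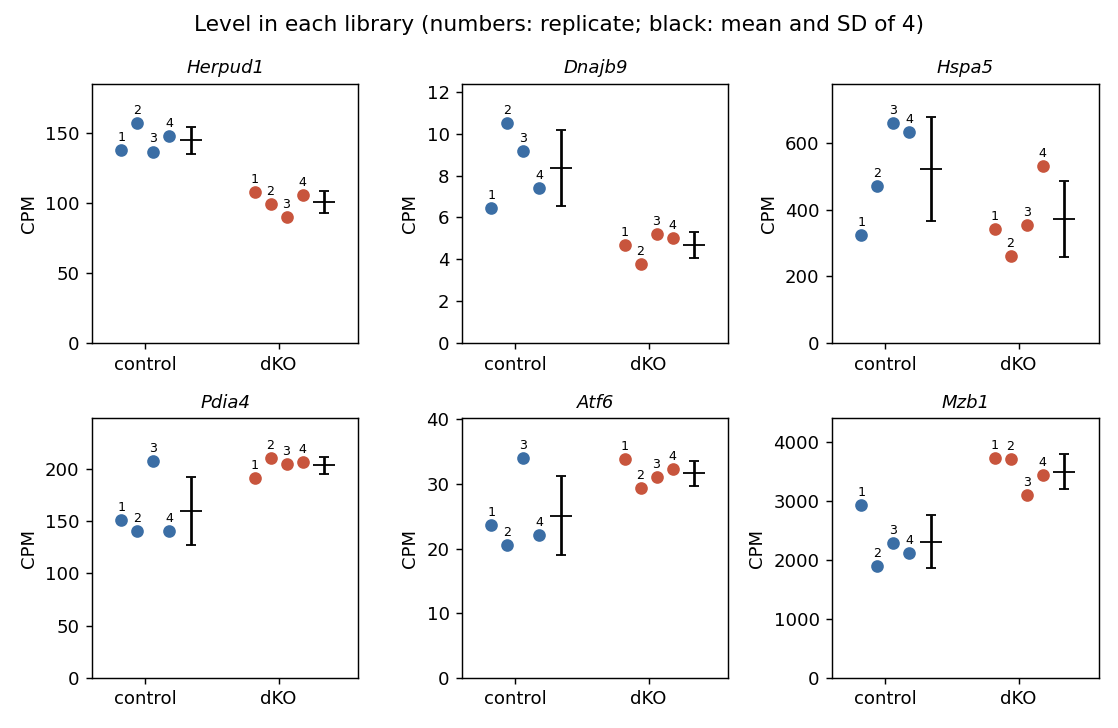
CPM of 6 genes in each library, with replicate numbers beside the points and the mean and SD of 4 libraries in black. Herpud1 and Dnajb9 lie lower in every dKO library than in any control, Mzb1 lies higher in every dKO library, and Hspa5, Pdia4 and Atf6 overlap between groups.

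The lumenal chaperones and cofactors were the role group with the most uniform sign. All 9 lay lower, and the median log2 fold change was −0.23 (0 called, smallest adjusted p = 0.16). With upper quartile scaling 8 of 9 lay lower, since Hsp90b1 turned to 0.004. The count was also 8 with a covariate for follicular B-2 markers, without both control 2 and control 4, without control 3 and without dKO 1. Without control 2 alone it was 7. Hspa5 (ENSMUSG00000026864), which encodes BiP, the HSP70 of the ER and the central UPR target, was at 324.9, 470.1, 658.8 and 632.1 CPM in controls 1 to 4. In dKO 1 to 4 it was at 341.9, 260.7, 354.5 and 529.7 CPM. Control 1 lay among the dKO libraries and dKO 4 among the controls, and the log2 fold change was −0.49 ± 0.26 (SE, edgeR adjusted p = 0.55). Dnajc3, a lumenal HSP40 also known as P58IPK, was at 96.3 ± 10.8 CPM (control) and 78.6 ± 14.1 CPM (dKO; SD, n = 4 each). The log2 fold change was −0.29 ± 0.16 SE (edgeR, adjusted p = 0.56).

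Hsp90b1, the ER HSP90 known as GRP94, had nearly equal group means, at 606 ± 106 CPM (control) and 601 ± 189 CPM (dKO; SD, n = 4 each, log2 fold change −0.01 ± 0.23, SE, edgeR adjusted p = 0.99). The secreted folding factor Manf ran from 522.1 to 739.8 CPM in the controls and from 338.8 to 745.5 CPM in the dKO libraries, and Sdf2l1 from 183.0 to 403.6 and from 148.4 to 373.6 CPM. Dnajb11 and Creld2, which both act in lumenal folding, ranged from 64.2 to 106.7 and from 61.3 to 124.1 CPM over all 8 libraries. The 4 dKO libraries were not alike. dKO 2 was the lowest of the 8 libraries in all 9 genes, with a median of −0.88 relative to the control mean on the log2 scale, and dKO 1 stood at −0.48, dKO 3 at −0.15 and dKO 4 at 0.19. Without dKO 2 the group's median was −0.11 with 7 of 9 genes lower, and without dKO 4 it was −0.45 with all 9 lower.

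**Figure D4:**
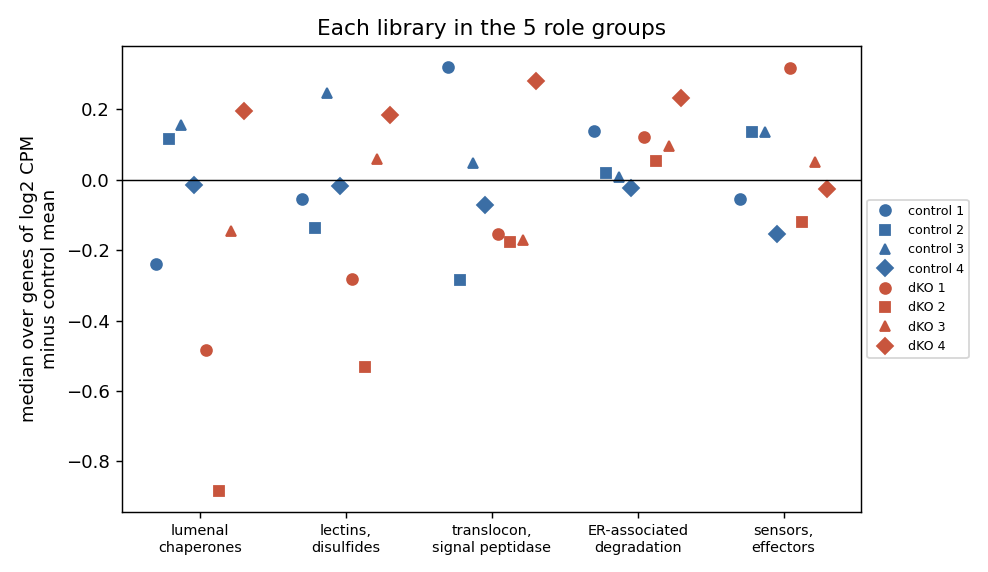
Median over the genes of each role group of log2 CPM minus the control mean, for every library (circle, square, triangle and diamond are replicates 1 to 4, blue control and red dKO). dKO 2 and dKO 1 lie lowest in both chaperone groups, at −0.88 and −0.48 in the lumenal one, while dKO 4 lies above 0 there at 0.19.

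Lectin chaperones and disulfide-forming enzymes had 7 of 8 genes lower, with a median of −0.09 (0 called, smallest adjusted p = 0.46). The lectins Calr and Canx, which hold glycoproteins in the folding cycle, overlapped between groups, at 235.4 to 395.6 and 42.4 to 85.0 CPM over all 8 libraries. Pdia6, an isomerase that also binds IRE1, was at 348.1, 288.7, 393.2 and 374.3 CPM in controls 1 to 4 and at 190.3, 165.1, 308.8 and 368.6 CPM in dKO 1 to 4. dKO 1 and dKO 2 lay below all controls and the other 2 did not (log2 fold change −0.44 ± 0.24, SE, edgeR adjusted p = 0.56). The general isomerase P4hb differed by a log2 value of −0.25 ± 0.18 SE (by edgeR, adjusted p = 0.69). The oxidase genes that recharge these isomerases differed in level, with Ero1l at 11.4 to 18.97 CPM and Ero1lb at 50.3 to 146.6 CPM over all libraries, and dKO 4 was lowest for Ero1lb.

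Pdia4 (ENSMUSG00000025823) was the single isomerase that lay higher. It was at 150.9, 140.7, 208.0 and 140.7 CPM in controls 1 to 4 and at 191.8, 210.9, 205.4 and 206.8 CPM in dKO 1 to 4. Control 3 stood with the dKO libraries and the other controls below them. The log2 fold change was 0.35 ± 0.16 SE (edgeR, unadjusted p = 0.049, adjusted p = 0.46). Without control 3 the log2 fold change was 0.50 (adjusted p = 0.18), and with control 2 and control 4 set aside for their high follicular B-2 markers it was 0.19 (0.66) and with a covariate for those markers 0.22 (0.62), against adjusted p of 0.18 to 0.77 with any 1 library left out. dKO 2, the lowest library for 14 of the 17 genes of the chaperone and isomerase groups, was the highest for Pdia4. Without dKO 2 the lectin and disulfide group's median was 0.03 with 3 of 8 genes lower, without dKO 1 −0.02 with 4, and without dKO 3 −0.22 with 7.

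**Figure D5:**
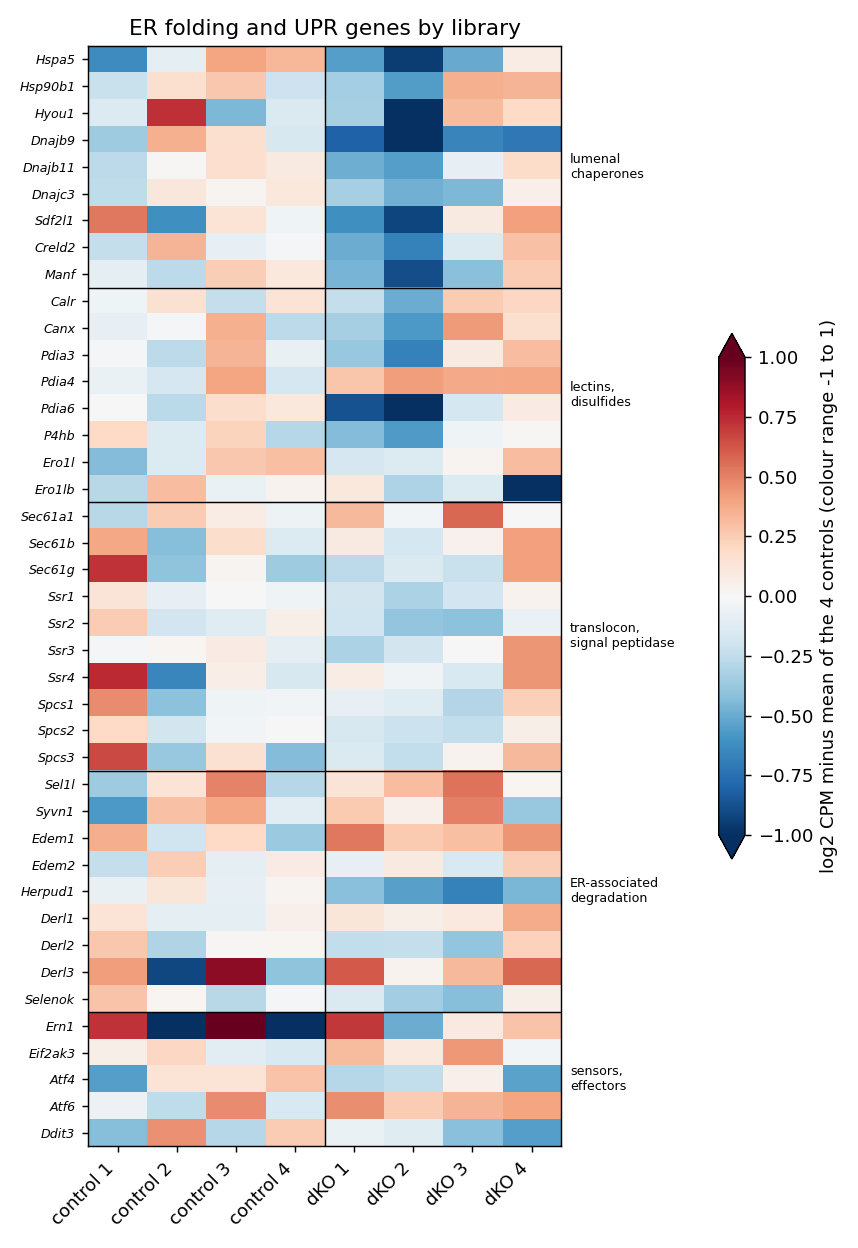
Log2 CPM of the 41 members in the 8 libraries minus the mean of the 4 controls, with role groups separated by lines and colours limited to −1 to 1. The chaperone rows are darkest blue in dKO 2, Herpud1 and Dnajb9 are blue in all 4 dKO columns, and several translocon rows are red in control 1 and dKO 4.

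Translocon and signal peptidase genes were divided, with 6 of 10 lower and a median of −0.07 (0 called, smallest adjusted p = 0.58). Ssr2, a subunit of the translocon-associated TRAP complex, was at 170.2 ± 24.1 CPM (control) and 141 ± 16.5 CPM (dKO; SD, n = 4 each). The log2 fold change was −0.27 ± 0.15 SE (edgeR, adjusted p = 0.58). Ssr1 of the same complex had −0.16 ± 0.13 (SE, edgeR adjusted p = 0.74). Sec61a1, the channel-forming subunit, went the other way at 0.23 ± 0.18 (SE, edgeR adjusted p = 0.73). The small subunits Sec61b and Sec61g, the remaining TRAP subunits Ssr3 and Ssr4 and the signal peptidase subunits Spcs1, Spcs2 and Spcs3 had log2 fold changes between −0.14 and 0.08. Control 1 was the highest library for 7 of the 10 genes, Ssr4 among them at 399.3 CPM against 151.1 to 322.6 CPM in the other libraries, and it also had the lowest TMM factor, 0.848 against 0.960 to 1.09. Without control 1 the group's median was 0.13 and 3 genes lay lower. Without dKO 4 it was −0.20 and without both control 2 and control 4 −0.26, with 9 lower each time. With all libraries, the median was −0.085 with 7 genes lower under RLE scaling and −0.062 with 6 lower under upper quartile scaling. The part of scaling in the high levels of control 1 was not tested.

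ER-associated degradation had 3 of 9 genes lower and 6 higher, with a median of 0.10 (0 called). Without control 1 the median was −0.04 with 5 lower. Herpud1, described above, stood apart from its group. Edem1, which steers misfolded glycoproteins into degradation, was at 28.8, 19.5, 25.7 and 17.3 CPM in controls 1 to 4 and at 32.2, 26.7, 27.6 and 30.3 CPM in dKO 1 to 4. Control 1 exceeded dKO 2 and dKO 3, and the log2 fold change was 0.36 ± 0.18 (SE, edgeR adjusted p = 0.53). It was 0.10 without both control 2 and control 4, and 0.17 with a covariate for follicular B-2 markers. The adaptor Sel1l and the ligase Syvn1, the core of the retrotranslocation complex, and the derlin genes Derl1, Derl2 and Derl3, which serve the same channel, had overlapping groups and log2 fold changes between −0.16 and 0.24. Selenok was at 543 ± 86.8 CPM (control) and 467 ± 71.8 CPM (dKO; SD, n = 4 each, log2 fold change −0.22 ± 0.17, SE, edgeR adjusted p = 0.73). Derl3, abundant in plasma cells, varied most here, from 7.48 CPM in control 2 to 26.1 CPM in control 3.

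The sensor genes and their effectors pointed in different directions (2 of 5 higher, 0 called). Their median of −0.27 turned to 0.17 without control 3 and to 0.08 without both control 2 and control 4. Atf6 was at 23.7, 20.6, 34.03 and 22.1 CPM in controls 1 to 4 and at 33.9, 29.4, 31.1 and 32.3 CPM in dKO 1 to 4. The dKO libraries were close together and control 3 stood above them and the other controls, of which none reached a dKO library (log2 fold change 0.34 ± 0.17, SE, edgeR adjusted p = 0.54). Without control 3 the value was 0.52, without both control 2 and control 4 it was 0.14, and with the follicular covariate 0.18. Eif2ak3 ranged from 18.4 to 23.7 CPM in the controls and from 20.2 to 27.7 CPM in the dKO libraries. Atf4 and its target Ddit3, which encodes the stress factor CHOP, lay lower, by log2 values of −0.27 ± 0.19 and −0.32 ± 0.21 (SE; edgeR, adjusted p = 0.69 and 0.65). For Atf4 the value was −0.07 without both control 2 and control 4, −0.15 with the follicular covariate, −0.18 without control 4 and −0.415 without control 1. The Ddit3 identifier is covered wholly by a second Ddit3 model, so its reads may be split. For Ddit3 the controls with high follicular B-2 markers were highest, control 2 at 64.2 and control 4 at 55.6 CPM against 31.9 to 44.7 CPM elsewhere, and without them its log2 fold change was 0.08 (edgeR adjusted p = 0.89, and 0.36 to 0.91 with any 1 library left out). It was −0.15 without control 2 alone and −0.029 with the follicular covariate. Ern1 had 4 to 46 counts per library and a log2 value of −0.44 ± 0.77 (SE, edgeR, adjusted p = 0.90), too few counts to read a direction.

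The members were also described by the letters of their promoters and 3′ UTRs, with no test. Of the 12 with an ERSE or ERSE-II, 10 lay lower, with a median log2 fold change of −0.22. Of the 22 with a window and no match, 14 lay lower, with a median of −0.12. Most of the 12 belong to the lumenal and lectin groups, whose medians without dKO 2 were −0.11 and 0.03. Promoter letters and role group were not separated here. Dnajb9 and Pdia4, 2 of the 3 members with an unadjusted p under 0.05, had no match, and Herpud1 had one. Seed matches of the deleted microRNAs (tgctgct) were present in the longest annotated 3′ UTR of 9 of 41 members (22.0%). The share was 24.8% of the 10678 tested genes with an annotated 3′ UTR. Members with a match had a median log2 fold change of −0.16, and those without one −0.12. Over those 10678 genes the medians ran the other way, at 0.02 with a match and −0.04 without. Ern1 had 3 matches, and Herpud1, Dnajb9, Hspa5 and Pdia4 had none.

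The other genes of the pathway did not pass either. Of 91 genes in 6 lists, 85 were tested, 49 lay lower and 36 higher, with a median log2 fold change of −0.03 and 0 called. The lists' medians ran from −0.09 for signal recognition particle and other translocon genes to 0.00 for further degradation genes. Xbp1 was at 106 ± 23.9 CPM (control) and 88.0 ± 18.7 CPM (dKO; SD, n = 4 each, log2 fold change −0.26 ± 0.20, SE, edgeR adjusted p = 0.71). Psat1, a serine synthesis gene and ATF4 target, was at 7.95 ± 1.68 against 4.59 ± 1.19 CPM (−0.79 ± 0.25, adjusted p = 0.24). The stress factor Nfe2l2 was at −0.38 ± 0.17 (adjusted p = 0.44). Its groups were barely separate, with dKO 1 at 51.9 CPM and control 3 at 52.01 CPM, and its log2 fold change was −0.20 without control 2, −0.155 without both control 2 and control 4 and −0.21 with the follicular covariate. Srpr, a receptor subunit for the signal recognition particle, the channel paralog Sec61a2 and the ER reductase Dnajc10 lay higher, at 0.39 ± 0.18, 0.66 ± 0.32 and 0.32 ± 0.16 (SE, edgeR adjusted p = 0.47, 0.49 and 0.52).

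Mzb1 had the smallest p among these genes. It encodes an ER protein of B-1, marginal zone and plasma cells that assists Hsp90b1 and immunoglobulin assembly. It was at 2942, 1893, 2290 and 2118 CPM in controls 1 to 4 and at 3734, 3722, 3101 and 3446 CPM in dKO 1 to 4. Every dKO library lay above every control, a 1.51-fold higher level. Of the 85 pathway genes tested outside the members, 1 had all dKO libraries higher, against 4% of all genes. In 2 of them, Nfe2l2 and Selenos, all dKO libraries were lower, against 2.96% of all genes. The Mzb1 log2 fold change was 0.60 ± 0.18 SE (edgeR, adjusted p = 0.23). DESeq2 (adjusted p = 0.046) and limma voom (0.025) called Mzb1, and without control 2 and control 4 the log2 fold change was 0.42 (edgeR adjusted p = 0.37). With any 1 library left out, edgeR gave adjusted p of 0.052 to 0.58. B-1a markers moved with it, with 10 of 10 positive, 1 of them called, and summed levels of 562.6 to 1251 CPM in control and 1244 to 1639 CPM in dKO libraries. Follicular B-2 markers went the other way, with 1 of 10 positive and 0 called. The part of these markers in the result was not tested. The summed plasma cell markers overlapped between the groups, at 275.4 to 377.9 CPM in control and 275.2 to 421.9 CPM in dKO libraries. Sdc1 was at most 3.64 CPM and Tnfrsf17 at most 1.16 CPM. Higher on this list were Slamf7 (69.4 to 196.6 CPM over all libraries), Xbp1 (71.0 to 127 CPM) and Jchain (22.7 to 93.7 CPM). Prdm1 did not overlap, at 0.71 to 2.81 CPM in control and 3.84 to 5.24 CPM in dKO libraries. Since Xbp1 is itself a UPR gene, the sum is no measure of plasma cells alone. In the reference used here, 57.2% of the Mzb1 exon bases are shared with a model of Spata24, so its level is uncertain.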

How the data were processed

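Bone marrow B cells of 4 control and 4 dKO mice were profiled, with groups taken from the sample titles. The authors' deposited table gives unnormalised read counts by gene, and its columns were matched through the codes in the sample descriptions. The table's 3 unnamed summary columns were not used. Per the submitters' processing notes, Trimmomatic, STAR and featureCounts were used on GRCm39; annotation, strand use and versions are not given in the sources consulted. Without known strand, reads of overlapping genes cannot be told apart, and 14 members share exon bases with another gene in GENCODE M21, Spcs1 most among those with an opposite-strand partner (16.3%). Even values made up 72.7% to 77.3% of counts below 20, as when both mates of a pair are counted, so fits were repeated on halved counts.

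Genes passing filterByExpr (11363) were TMM-normalised, then tested in edgeR 4.0.16 (robust quasi-likelihood F test, genotype as the only term, Benjamini-Hochberg over all genes tested) in R 4.3.3. The procedure was also run on 3 simulated data sets, drawn gene by gene without library shifts shared between genes. Their outcome is not given here, so they do not show which member differences could have been called. SE is the absolute log2 fold change divided by the root of F, and a prior count of 2 was used for log2 CPM. A floor of 3 counts equals 0.0858 to 0.117 CPM (counting error alone). Pairs of libraries within a group differed by a chi-square of 31.3 to 321.3 per degree of freedom, so none was a duplicate. The series text gives 4 mice per group. Seed matches were counted in the longest 3′ UTR of GENCODE M21 protein-coding transcripts.

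Members and lists were chosen with earlier results of these data known. Members given with fold change, SE and p were the 3 with the smallest p in each role group, and Hspa5, Hsp90b1, Atf4, Ddit3 and Ern1 in any case, of which Hsp90b1 and Ern1 were not already among them (17 members). Outside the members they were the 6 with the smallest p, and Xbp1 and Mzb1 in any case, of which Mzb1 was already among them (7 genes). ER retrieval signals at protein ends were not analysed here. Marker lists also covered T (104.2 to 279.1 CPM summed over all libraries), NK (5.21 to 48.0), myeloid (528 to 5159), plasmacytoid dendritic (6139 to 10081) and erythroid cells (0.30 to 8.58). These sums do not measure cell numbers, since genes of a list can be expressed in other cells. The myeloid gene Lyz2 ran from 506.7 CPM in control 2 to 5041 CPM in control 4, and from 390.4 to 2104 CPM in dKO libraries. Its part in the member differences was not tested. Refits used DESeq2 1.42.0, limma 3.58.1 (voom, quality weights), upper quartile or RLE scaling, a minimum of 5 CPM in 4 libraries or no filter, halved counts, a replicate block, a covariate for follicular B-2 markers, an adjusted p under 0.1, and leaving out control 2 with control 4 or each library.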

Additional observations from a re-analysis of the deposited data

Results flagged for a closer look

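In 96 groups of 4 libraries (41 members and 7 other named genes in both genotypes), 2 held a library far from the other 3 of its group. Chance flags about 1 in 20 groups, a larger share than this. Pdia4 was at 208 CPM in control 3 and at 140.7 to 150.9 CPM in the other controls. Sec61g was at 97.2 CPM in dKO 4 and at 60.9 to 65.9 CPM in the other dKO libraries.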

How the results depend on the processing

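edgeR called no member and no other pathway gene under any alternative scaling, filter, covariate or set of libraries at an adjusted p under 0.05. At 0.1 it called none with all libraries, but without control 1, among the named genes, Herpud1 (adjusted p = 0.089), Dnajb9 (0.093) and Mzb1 (0.052) fell under 0.1. DESeq2 called 2 members (Herpud1 and Dnajb9) and 1 other pathway gene (Mzb1), and limma voom 1 member (Herpud1) and 2 other genes (Mzb1 and Psat1, adjusted p = 0.045). The causes were not tested. Members with a negative log2 fold change numbered 21 to 32 over all alternatives, and their median was −0.207 to −0.031. With 1 library left out, the median was −0.04 to 0.13 for ER-associated degradation, −0.41 to 0.17 for sensors and effectors, −0.075 to 0.083 for UPR regulators outside the members, −0.265 to 0.031 for ATF4 and CHOP targets and −0.083 to 0.111 for other ER folding genes. The sensor median was 0.31 in limma voom, −0.029 with CPM above 5 and with the follicular covariate, −0.031 with halved counts, 0.077 with the replicate block and 0.084 without control 2 and control 4. Fewer genes were tested under the first filter and with halved counts. The UPR regulator median was 0.10 with the covariate and 0.12 without control 2 and control 4, and that of ATF4 and CHOP targets 0.20 and 0.14. Of 429 refitted values of named genes, 414 kept direction and side of the threshold, and 9 changed sign, none of them called. These were Ddit3 without control 2 and control 4 (0.084), Hsp90b1 with upper quartile scaling (0.004) and with control 2, control 3, dKO 1 or dKO 2 left out (0.039, 0.085, 0.084 and 0.138; range −0.158 to 0.138 with 1 library left out), and Ern1 in limma voom (0.43), with the replicate block (0.077) and without control 3 (range −0.774 to 0.507 with 1 library left out). Other named values moved over 1.5 times without losing their sign: Dnajc3 (−0.18) and P4hb (−0.44) without control 2 and control 4, Pdia6 (−0.28), P4hb (−0.15) and Xbp1 (−0.17) without dKO 2, Pdia6 (−0.68), Ssr1 (−0.24) and Xbp1 (−0.42) without dKO 4, Ssr2 (−0.17), Ssr1 (−0.105) and Selenok (−0.10) without control 1, Sec61a1 (0.099) without dKO 3, Xbp1 (−0.16) without control 3, and Pdia6 (−0.77), Xbp1 (−0.46) and Sec61a2 (0.42) in limma voom. Deviations from the group means in libraries of the same number correlated across genes at −0.009, −0.071, 0.062 and 0.15. Pairs of unlike number ran from −0.177 to 0.175. Whether libraries of the same number share more than the number cannot be told from these values. The block called no member, and control 1 correlated most with dKO 4. Depth limits Ern1 (4 to 46 counts) and Hyou1 (26 to 118 counts).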

Other observations

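Prdm1, which encodes the plasma cell regulator Blimp-1 that acts upstream of Xbp1, was at 2.81, 0.71, 2.11 and 1.41 CPM in controls 1 to 4 and at 3.84, 5.24, 4.47 and 4.12 CPM in dKO 1 to 4. All dKO libraries lay above all controls, as in 4% of all genes tested, while Xbp1 overlapped between groups with a log2 fold change of −0.26. Prdm1 had a log2 fold change of 1.33 (edgeR adjusted p = 0.20). Of the 9 plasma cell markers tested, 5 were positive. Sdc1 went the other way, at −2.69 (edgeR adjusted p = 0.34), with overlapping groups and at most 3.64 CPM. Vpreb3 is a chaperone-like gene of early B cells whose product binds immunoglobulin chains in the ER. It was at 39.4, 90.7, 47.5 and 227.7 CPM in controls 1 to 4 and at 3.53 to 33.1 CPM in dKO libraries. Its log2 fold change was −2.81 (edgeR adjusted p = 0.23). Control 2 and control 4, with high follicular B-2 markers, were the highest for Vpreb3 and the lowest for Prdm1. The part of these markers in either difference was not tested. Prdm1 and Vpreb3 were chosen after their values were seen.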
